A study of Homo sapiens with 8 samples.

Results

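The genes described here are 9 cAMP phosphodiesterases, PDE3A, PDE3B, PDE4A, PDE4B, PDE4C, PDE4D, PDE7A, PDE8A and PDE10A. They were taken by gene symbol, each through the probe set that the platform annotation assigns to it, from 22458 named genes on the array. The arrays held RNA of Caco-2 clone TC7 cells, a human colon cancer line that grows as an epithelium. Subconfluent cells received, overnight, 200 ng of an expression plasmid for the coactivator CRTC1 (arrays CRTC1 n1 to n4) or 200 ng of the matching empty vector, pBS (arrays CTRL n1 to n4). All cells came from the same line and medium, and how many cells took up plasmid is not stated. Each value averages over transfected and untransfected cells, and fewer expressing cells and less RNA per cell cannot be told apart.

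Cyclic AMP is made by adenylyl cyclases, activates protein kinase A, and is broken down to 5′-AMP by phosphodiesterases, which are its main route of removal inside the cell. Protein kinase A phosphorylates CREB and, through inhibition of salt-inducible kinases, lets CRTC proteins enter the nucleus, where they bind CREB at cAMP response elements (CREs). In many cells cAMP also raises transcription of phosphodiesterase genes, above all short PDE4 forms started inside the gene, and protein kinase A activates PDE3B and the long PDE4 proteins, so degradation of cAMP forms a feedback loop. In intestinal epithelium cAMP drives chloride secretion, and PDE3 and PDE4 enzymes limit that signal. The comparison asked which phosphodiesterase transcripts differ when the cells are given CRTC1.

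The CRE in full is the palindrome TGACGTCA, and its core is TGACG, which reads CGTCA on the other strand. Both were searched on both strands in windows from 250 bases before to 50 bases after each annotated start (RefSeq, GRCh38.p14). The search covered windows of 7 of the 9 genes, 29 in all, from 1 for PDE3A to 8 for PDE4D. No window of PDE3B or PDE7A was included, which does not show that the annotation lacks one. The counts below hold for these 29 windows only. Core letters stood in 3 of the 29 windows (10.3%), against 24.6% of all 35116 windows, and the full CRE in 1, against 1.85% of all windows. These 3 windows are shown because, of the 29 searched, they hold the letters CREB is known to bind. Capitals mark the core or full CRE.
PDE4A window 1, chr19:10416523-10416822, plus strand: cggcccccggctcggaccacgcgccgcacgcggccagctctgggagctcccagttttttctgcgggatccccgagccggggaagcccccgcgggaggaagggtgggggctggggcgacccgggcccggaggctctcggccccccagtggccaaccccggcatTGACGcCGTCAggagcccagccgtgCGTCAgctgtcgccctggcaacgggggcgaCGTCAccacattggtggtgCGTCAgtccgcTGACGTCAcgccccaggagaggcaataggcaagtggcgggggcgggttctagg
PDE4C window 4, chr19:18224444-18224743, minus strand: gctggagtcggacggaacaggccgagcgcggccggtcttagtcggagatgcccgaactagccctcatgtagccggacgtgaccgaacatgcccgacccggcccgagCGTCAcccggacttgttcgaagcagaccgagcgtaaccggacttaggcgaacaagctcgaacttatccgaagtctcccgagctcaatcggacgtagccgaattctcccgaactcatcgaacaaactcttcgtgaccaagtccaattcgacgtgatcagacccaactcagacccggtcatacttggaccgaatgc
PDE4D window 4, chr5:59587576-59587875, minus strand: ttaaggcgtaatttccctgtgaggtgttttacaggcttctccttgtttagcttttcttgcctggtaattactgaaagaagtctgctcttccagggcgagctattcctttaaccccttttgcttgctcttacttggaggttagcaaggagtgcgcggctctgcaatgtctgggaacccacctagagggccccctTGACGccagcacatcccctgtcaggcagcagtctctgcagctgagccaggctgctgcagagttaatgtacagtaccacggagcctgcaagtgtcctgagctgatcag

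The PDE4A window held 7 core matches between position -88 and position 5, where position 1 is the annotated start. The full CRE lay at -3 to 5 and accounts for 2 of these 7 matches, since it contains the core on each strand. Only 4 of the 35116 windows held 7 or more core matches. PDE4C had a core match at -144 to -140 and PDE4D at -57 to -53. PDE3A, PDE4B, PDE8A and PDE10A had no core letters in their windows. The windows of 1 gene can overlap, as they do in PDE8A. The letters are a description of sequence, and binding of CREB or CRTC1 was not measured.

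**Figure D1:**
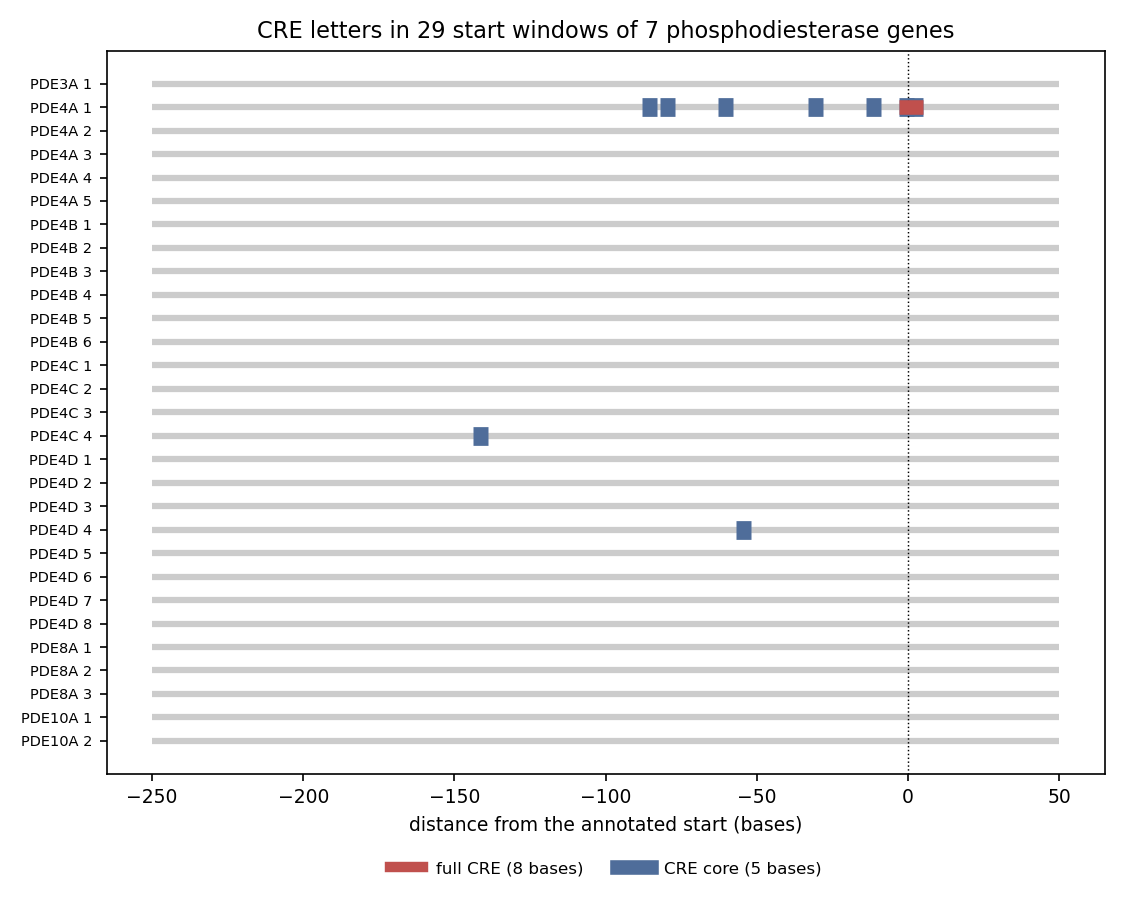
Positions of CRE letters in the 29 start windows (rows; gene and window number), with distance from the annotated start in bases on the horizontal axis. Blue blocks are core matches and the red block the full CRE. All but 2 of the core matches lie in window 1 of PDE4A.

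The deposited values are log2 expression, so a difference of 1 is a 2-fold difference, and the lowest and highest array medians over all probe sets were 4.11 and 4.15. CRTC1 itself lay at 12.52, 11.78, 11.70 and 11.46 on the CRTC1 arrays, against 5.48, 5.63, 6.30 and 6.19 on the CTRL arrays. It was the 1 gene of 22458 past an adjusted p of 0.05 in limma (0.00445% of genes). The epithelial genes EPCAM (10.25 on CRTC1 arrays and 10.31 on CTRL arrays), VIL1 (9.51 and 9.56) and CDX2 (7.60 and 7.57) were bright. Of 10 intestinal epithelial markers 8 were brighter than the 95th percentile of olfactory receptor genes, all but KRT20 and SI. Of the markers of other cell types, the smooth muscle and endothelial lists, 4 genes each, had mean signals of at most 4.22 on CRTC1 arrays and 4.24 on CTRL arrays. The 5 fibroblast markers reached 4.98 and 4.92, and the 6 leukocyte markers 7.41 and 7.48, the values of CD68, which epithelial lines can also express. By the same 95th percentile, 4 of 6 leukocyte, 2 of 4 smooth muscle, 1 of 5 fibroblast and 0 of 4 endothelial markers were brighter. That percentile alone thus does not separate the epithelial list from the leukocyte list. No marker passed after adjustment. No label says that the arrays stand for separate cultures, and the spread behind each p-value may thus be technical only.

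The table held no detection calls, so the 354 olfactory receptor genes, most of which are silent outside sensory neurons, served as a guide to dim signal. Their median was 2.40 and their 95th percentile 3.71. PDE3B, PDE7A and PDE8A were each brighter than all 354, and PDE4A than 352 of them. PDE4C was brighter than 295, PDE4D than 265, PDE4B than 259, PDE10A than 138 and PDE3A than 111. Thus 4 of the 9 lay above the 95th percentile and 5 below it. PDE4A, though above the percentile, still lay within the range of these genes. Signals of different probe sets do not rank transcript amounts, and for the 5 dim genes a small difference on the array can understate a difference in transcript.

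**Figure D2:**
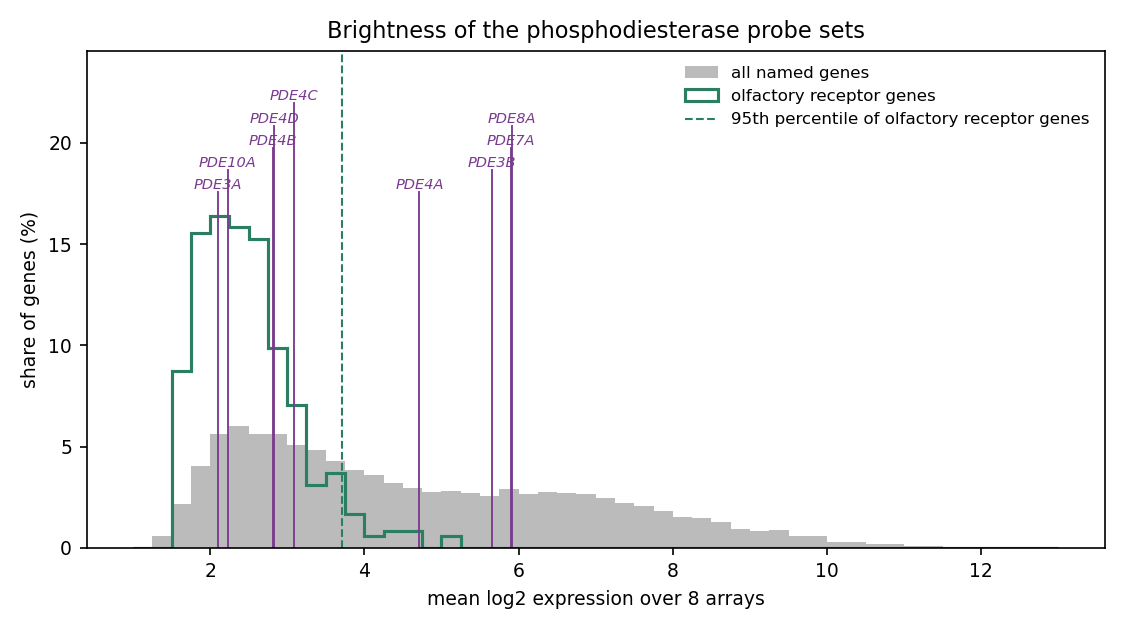
Mean log2 expression over the 8 arrays (horizontal axis) against the share of genes in percent, for all named genes (grey) and olfactory receptor genes (green outline, dashed line at their 95th percentile, 3.71). Purple lines mark the 9 phosphodiesterase genes: PDE4A, PDE3B, PDE7A and PDE8A lie right of the dashed line.

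None of the 9 phosphodiesterase genes passed an adjusted p of 0.05 in limma's moderated test, where the lowest adjusted p among them was 0.864. At an unadjusted p under 0.05 there were also 0 of 9, where 5.94% of all genes had such a value, 3.20% higher and 2.73% lower. In 0 of 9 genes did the CRTC1 and CTRL arrays fail to overlap, against 3.74% of all genes, 1.68% higher and 2.06% lower. The log2 differences ran from -0.22 (PDE3B) to 0.15 (PDE10A), 6 positive and 3 negative, with a median of 0.02, beside -0.01 over all genes. The 95% intervals all covered 0, and all 9 lay within a 2-fold difference in either direction. In 8 of 9 the interval lay within 1.5-fold, all but PDE4B. These bounds are for array signal. Those of the dim genes PDE3A, PDE4C, PDE4D and PDE10A may understate differences in transcript. The smallest p that an exact two-sided permutation of 4 against 4 arrays allows is 0.0286.

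**Figure D3:**
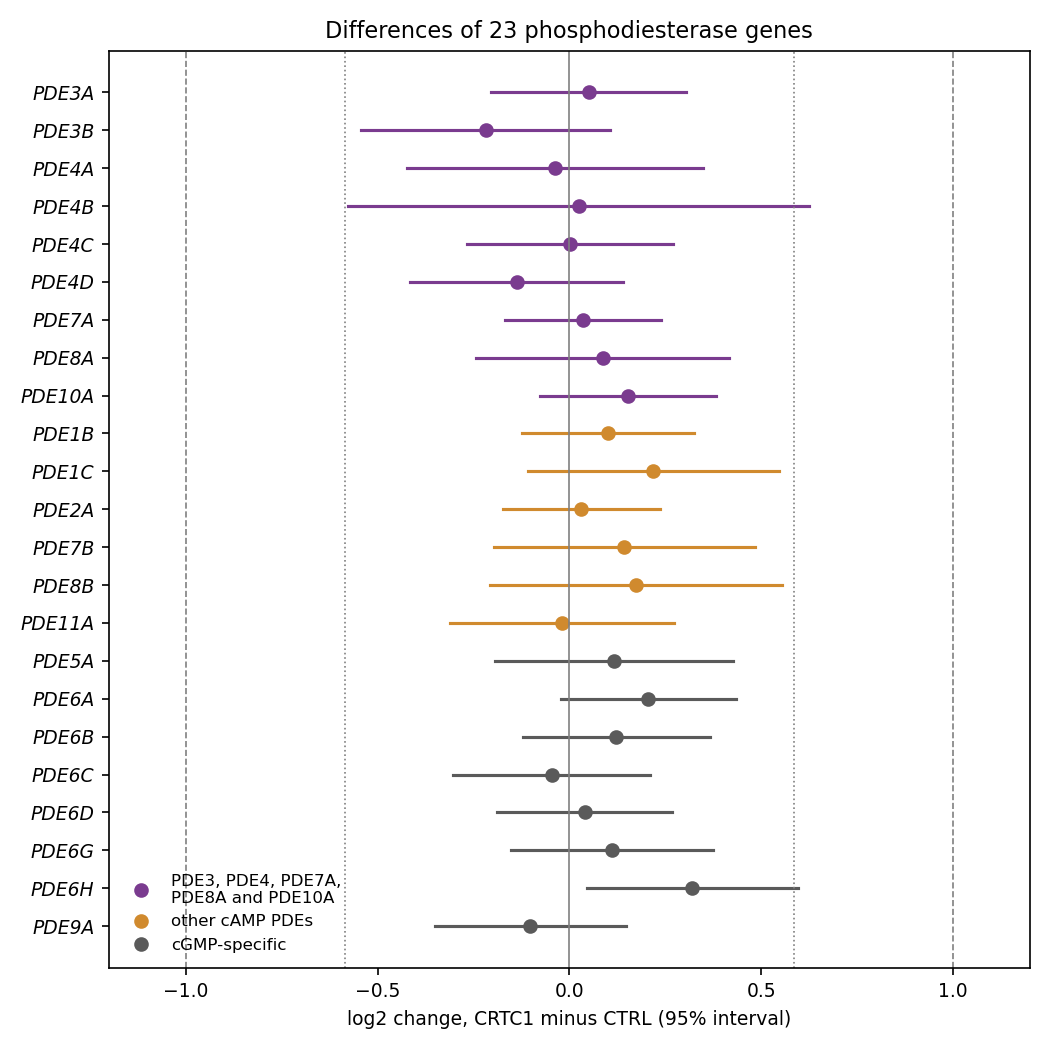
Log2 change, CRTC1 minus CTRL, with 95% intervals for 23 phosphodiesterase genes (purple, the 9 described; orange, other cAMP-hydrolysing; grey, cGMP-specific), 4 arrays a group. Dotted lines mark 1.5-fold and dashed lines 2-fold; all 9 purple intervals cross 0, and PDE4B has the widest.

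PDE3 enzymes hydrolyse cAMP and are inhibited by cGMP. PDE3B, the form through which insulin lowers cAMP in fat and liver cells, had log2 expression of 5.14, 5.79, 5.50 and 5.76 on CRTC1 n1 to n4, against 5.76, 5.85, 5.83 and 5.63 on CTRL n1 to n4. CRTC1 n1 and n3 lay below all CTRL arrays, and the other CRTC1 arrays lay among them. The means were 5.55 ± 0.302 on CRTC1 arrays and 5.76 ± 0.100 on CTRL arrays (SD, n = 4 each), a difference of -0.22 with a standard error of 0.14 and a 95% interval of -0.54 to 0.11. This was the largest difference in size among the 9, and it did not pass (adjusted p = 0.864 in limma, exact permutation p = 0.229). Without CRTC1 n1 it was -0.08.

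PDE3A, the form best known from heart muscle, platelets and oocytes, had 2.07, 2.30, 1.95 and 2.20 on the CRTC1 arrays and 2.26, 2.18, 1.90 and 1.97 on the CTRL arrays. The groups covered nearly the same range, on a dim probe set. The difference was 0.05, with a 95% interval of -0.20 to 0.31 (adjusted p = 0.958 in limma).

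PDE4 enzymes are specific for cAMP, are the target of rolipram and roflumilast, and are encoded by 4 genes. PDE4A, the bright gene among them and the one with the CRE-rich window shown above, had 4.71, 4.91, 4.29 and 4.87 on CRTC1 n1 to n4, against 4.83, 4.93, 4.84 and 4.33 on CTRL n1 to n4. In each group 3 arrays lay close together and 1 lay lower, n3 with CRTC1 and n4 with empty vector. The means were 4.70 ± 0.283 and 4.73 ± 0.272 (SD, n = 4 each), a difference of -0.04 with a 95% interval of -0.42 to 0.35 (adjusted p = 0.982 in limma, exact permutation p = 0.743). The difference was 0.10 without CRTC1 n3, 0.03 without CTRL n2 and -0.17 without CTRL n4. The probe set gives 1 value for the gene, so transcripts from its 5 listed starts could not be separated.

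PDE4A was 1 of 478 measured genes with the full CRE in a start window. Their median log2 difference was 0.01, beside -0.01 over the 16038 measured genes with a window. Of the 478, 13 were higher and 14 lower at an unadjusted p under 0.05, a share of 5.65%. Beside it stands 5.94% of all 22458 genes, with or without a window.

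PDE4B, the form linked to inflammatory signalling in leukocytes, had the widest spread of the 9 genes. It lay at 2.99, 1.94, 3.11 and 3.26 on CRTC1 n1 to n4, against 2.94, 2.78, 2.50 and 3.00 on CTRL n1 to n4. CRTC1 n2 was the lowest of the 8 arrays, and CRTC1 n3 and n4 were the highest. The difference was 0.02 with a standard error of 0.27 and a 95% interval of -0.58 to 0.63 (adjusted p = 0.992 in limma). Without CRTC1 n2 it was 0.32, at an unadjusted p of 0.0465 and an adjusted p of 0.929 in limma. The within-group SD was 0.455, above that of 94.9% of genes of similar brightness.

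PDE4C had 3.06, 3.13, 3.00 and 3.17 on the CRTC1 arrays, against 3.11, 2.80, 3.37 and 3.06 on the CTRL arrays. The CRTC1 arrays lay inside the CTRL range, and the difference was 0.0021 with a 95% interval of -0.27 to 0.27 (adjusted p = 0.998 in limma). PDE4D, a regulator of cAMP at beta-adrenergic receptors and ion channels, had 2.74, 2.89, 2.86 and 2.58 on the CRTC1 arrays, against 2.93, 2.80, 2.69 and 3.19 on the CTRL arrays. CTRL n4 was the highest array and CRTC1 n4 the lowest. The difference was -0.14, with a 95% interval of -0.42 to 0.14 (adjusted p = 0.882 in limma), and it was -0.04 without CTRL n4. Both probe sets were dim, and their 4 and 8 listed starts could not be separated.

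PDE7A, a cAMP-specific enzyme that rolipram does not inhibit, had the narrowest interval of the 9 genes. Its values were 5.84, 5.83, 5.97 and 6.05 on CRTC1 n1 to n4, against 5.90, 5.77, 5.84 and 6.03 on CTRL n1 to n4. The groups overlapped throughout, with means of 5.92 ± 0.105 and 5.88 ± 0.111 (SD, n = 4 each). The difference was 0.04 with a standard error of 0.09 and a 95% interval of -0.17 to 0.24 (adjusted p = 0.964 in limma). As folds, the interval ran from 0.891 to 1.18.

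PDE8A, an enzyme with high affinity for cAMP that the general inhibitor IBMX does not block, had 5.70, 6.19, 6.12 and 5.81 on CRTC1 n1 to n4, against 5.66, 6.12, 5.99 and 5.71 on CTRL n1 to n4. In each group n2 and n3 were higher than n1 and n4. The means were 5.96 ± 0.238 and 5.87 ± 0.221 (SD, n = 4 each), a difference of 0.09 with a 95% interval of -0.24 to 0.42 (adjusted p = 0.940 in limma, exact permutation p = 0.571).

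PDE10A hydrolyses cAMP and cGMP and is best known from striatal neurons. Its dim probe set read 2.19, 2.23, 2.38 and 2.42 on CRTC1 n1 to n4, against 2.16, 1.94, 2.32 and 2.18 on CTRL n1 to n4. All CRTC1 arrays lay above CTRL n1, n2 and n4, and CTRL n3 lay among them. The difference was 0.15 with a standard error of 0.10 and a 95% interval of -0.08 to 0.38 (adjusted p = 0.864 in limma, exact permutation p = 0.143). Without CTRL n3 the groups no longer overlapped, by a small margin (2.188 on CRTC1 n1 against 2.184 on CTRL n4). The difference was then 0.21, at an unadjusted p of 0.0801 in limma.

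LINC00473, a long noncoding RNA known as a CREB and CRTC target in lung cancer cells, was looked up after the values were seen, because RefSeq lists its name among the synonyms of PDE10A. It has its own probe set, which read 2.71, 2.81, 2.20 and 2.08 on the CRTC1 arrays, against 2.23, 1.94, 2.28 and 2.40 on the CTRL arrays. CRTC1 n1 and n2 lay above all CTRL arrays, while CRTC1 n3 and n4 did not. The difference was 0.24, with a 95% interval of -0.16 to 0.64 (adjusted p = 0.873 in limma). With 1 array left out it ran from 0.12 (without CRTC1 n2) to 0.36 (without CRTC1 n4). The probe set was dim, brighter than 167 of the 354 olfactory receptor genes.

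**Figure D4:**
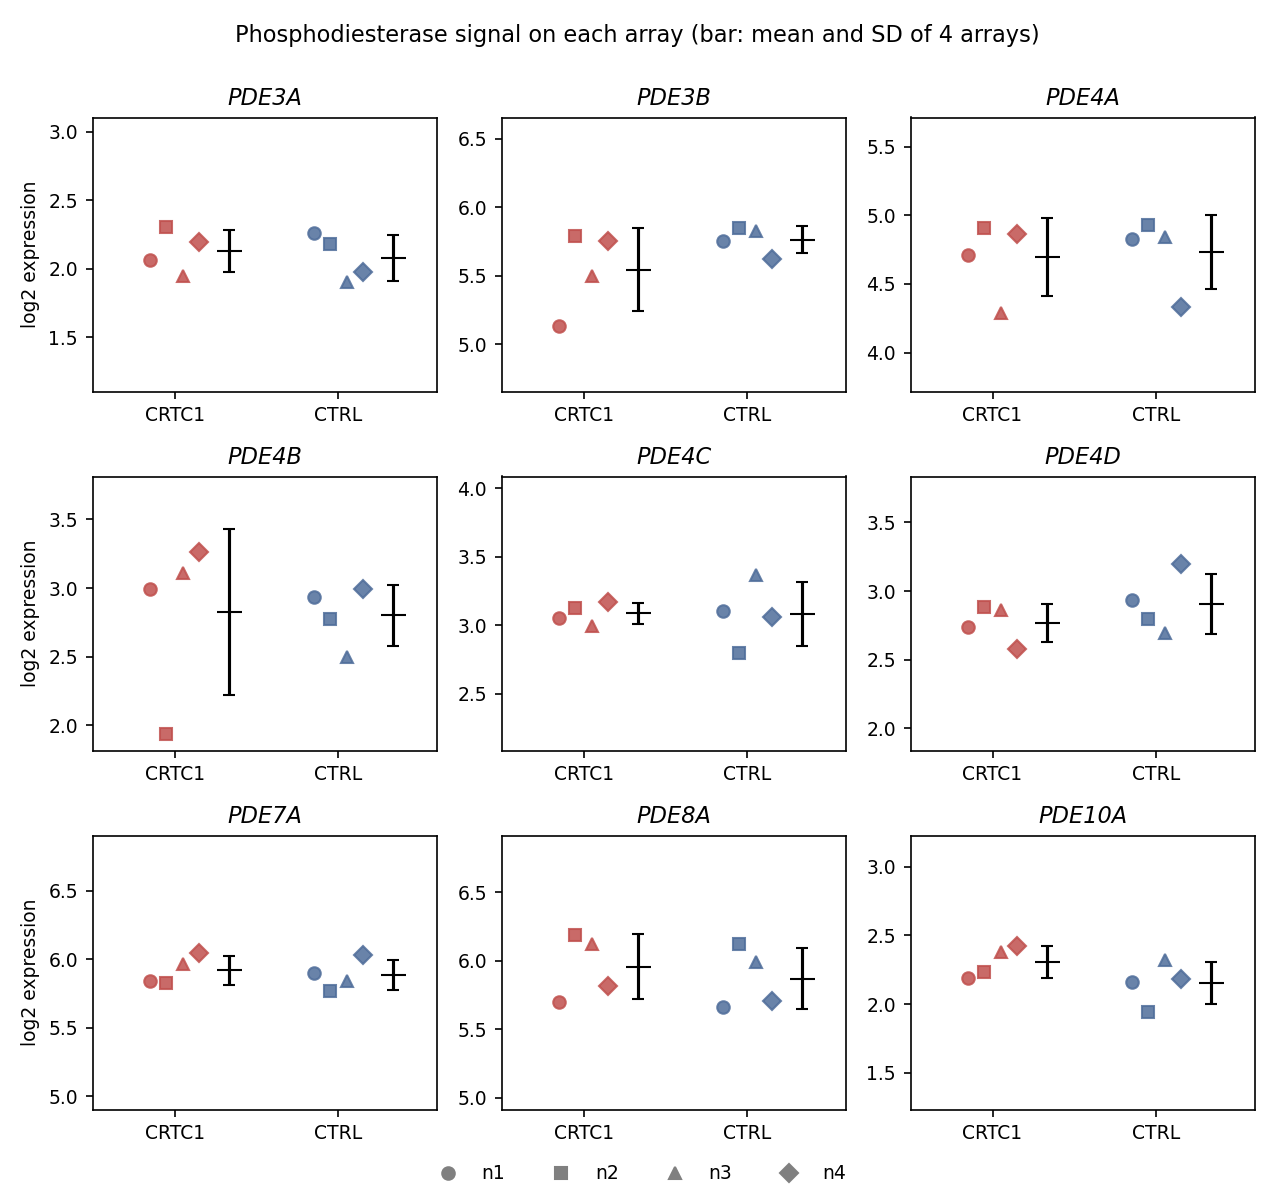
Log2 expression of the 9 genes on each array, CRTC1 left and CTRL right, with 1 marker shape per replicate number and black bars for the mean and SD of 4 arrays. Each panel spans 2 log2 units around the gene's mean; the groups overlap in all 9 panels, and CRTC1 n2 lies far below the other arrays in PDE4B.

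Most of the 9 genes lay below their 8-array mean on CRTC1 n1, some of them by little, as PDE4A at 4.7138 against 4.7143. That array was above the gene's 8-array mean in 1 of 9 genes, CRTC1 n2 and n4 in 7 each and CRTC1 n3 in 5. Among CTRL arrays n1 was above it in 6, n2 in 4, n3 in 5 and n4 in 3. CRTC1 n1 had the highest CRTC1 signal, and its mean deviation over the 9 genes was -0.09, while that of CRTC1 n4 was 0.10. A relation to the CRTC1 signal was not tested, and the same counts over all genes are not given here.

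Leaving out 1 array at a time changed the sign of the difference in PDE3A, PDE4A, PDE4B, PDE4C and PDE7A. PDE3B stayed negative, from -0.30 (without CRTC1 n2) to -0.08 (without CRTC1 n1), and PDE4D, from -0.21 (without CTRL n3) to -0.04 (without CTRL n4). PDE8A stayed positive, from 0.0087 (without CRTC1 n2) to 0.17 (without CRTC1 n1), and PDE10A, from 0.08 (without CTRL n2) to 0.21 (without CTRL n3). In none of these fits did one of the 9 genes pass after adjustment.

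**Figure D5:**
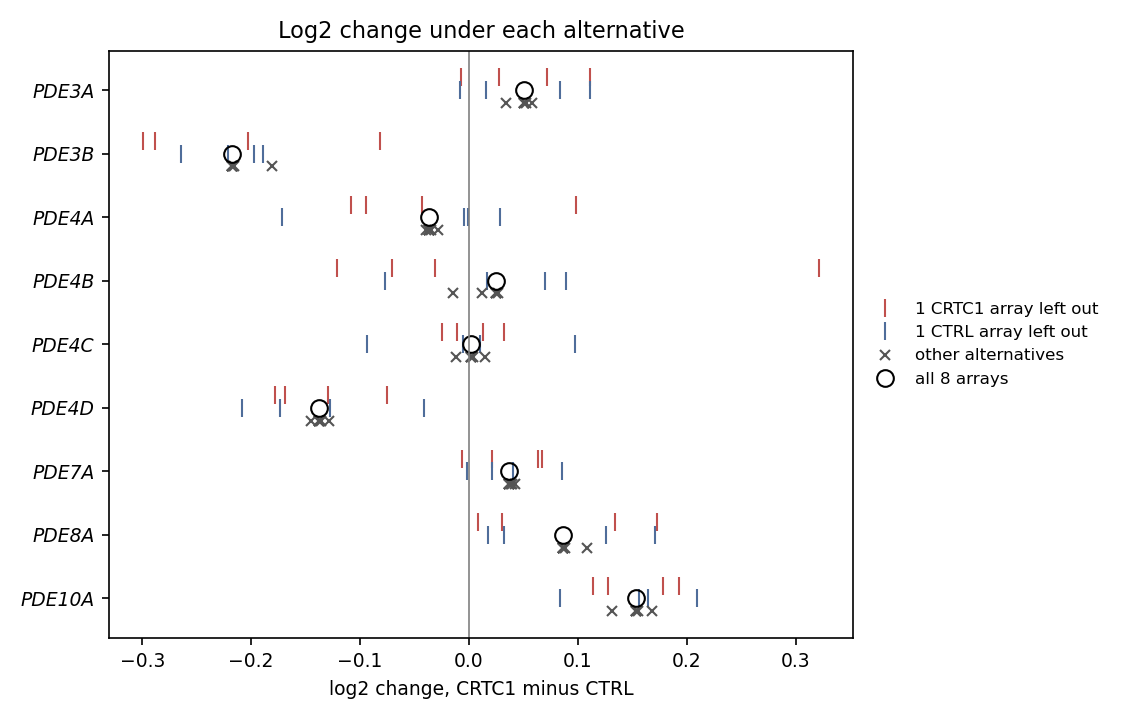
Log2 change, CRTC1 minus CTRL, of the 9 genes with all 8 arrays (circles), with 1 CRTC1 array left out (red ticks), with 1 CTRL array left out (blue ticks) and under the other alternatives (crosses). The red tick of PDE4B at 0.32 is the fit without CRTC1 n2.

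No other phosphodiesterase gene of the lists passed after adjustment either. Of 6 measured genes that also hydrolyse cAMP (PDE1B, PDE1C, PDE2A, PDE7B, PDE8B and PDE11A; PDE1A was not analysed here), 5 were positive and 1 negative, with 0 at an unadjusted p under 0.05 and a median difference of 0.12. The smallest p was that of PDE1C, a calcium-stimulated enzyme, with a difference of 0.22 (adjusted p = 0.864 in limma). It was 0.08 without CRTC1 n2, where PDE1C read 3.02. None of the 6 was brighter than the 95th percentile of olfactory receptor genes. Of 8 cGMP-specific genes and subunits 1 had an unadjusted p under 0.05, the cone photoreceptor subunit gene PDE6H, and none passed after adjustment. PDE6H averaged 2.42 ± 0.201 on CRTC1 arrays and 2.10 ± 0.158 on CTRL arrays (SD, n = 4 each), a difference of 0.32 on a dim probe set (adjusted p = 0.837 in limma). Its unadjusted p was 0.05 or more without CRTC1 n2, CRTC1 n3 or CTRL n1.

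Genes that make, sense or place cAMP also held none past the adjusted threshold. Of 15 adenylyl cyclase and G protein genes 8 were positive and 7 negative, with a median of 0.03, and ADCY7, a cyclase gene, had the smallest p at a difference of -0.22 (adjusted p = 0.864 in limma). ADCY7 was at -0.10 without CTRL n4. Of 13 measured protein kinase A, exchange factor and Popeye genes 8 were positive and 5 negative, with a median of 0.04, and POPDC3, whose protein binds cAMP, was at -0.19 (adjusted p = 0.855 in limma). POPDC3 had an unadjusted p of 0.0381 without CRTC1 n3 and of 0.0485 with quantile normalization. Of 15 measured anchoring and partner genes 1 had an unadjusted p under 0.05 and was lower. That was DISC1, a scaffold that binds PDE4, with means of 2.51 ± 0.0952 on CRTC1 arrays and 2.84 ± 0.291 on CTRL arrays (SD, n = 4 each) and a difference of -0.33 (adjusted p = 0.837 in limma). Its unadjusted p of 0.0424 in limma (exact permutation p = 0.114) was 0.0533 with a variance trend and 0.0625 with array weights. With 1 array left out it stayed under 0.05 in 1 of 8 fits, the one without CTRL n2. The probe sets of DISC1 and POPDC3 were dim, brighter than 238 and 87 of the 354 olfactory receptor genes.

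Of the lists of cAMP genes, the immediate response genes held the most members that differed before adjustment. In this list 3 of 10 genes did not overlap between the groups and had an unadjusted p under 0.05, all higher with CRTC1, where 1.68% and 3.20% of all genes did so. They were the nuclear receptor gene NR4A2 (difference 1.55), the clock repressor gene PER2 (0.43) and CREM (0.19), which encodes the repressor ICER that ends cAMP responses. The CREM probe set gives 1 value for the gene, so ICER transcripts could not be separated from others. None of the 3 genes passed after adjustment (adjusted p = 0.837 for each in limma). CREM averaged 3.76 ± 0.081 on CRTC1 arrays and 3.57 ± 0.0843 on CTRL arrays (SD, n = 4 each). Over all arrays its mean of 3.66 lay just under the 95th percentile of olfactory receptor genes, 3.71. The unadjusted p of CREM, 0.0458, was 0.0526 with quantile normalization and 0.133 with a variance trend. With 1 array left out it stayed under 0.05 in 3 of 8 fits, while NR4A2 and PER2 did so in 8 of 8. NR4A2 read 6.01 on CRTC1 n1 and 3.91 to 4.40 on the other CRTC1 arrays, and its difference was 1.07 without CRTC1 n1. All 10 genes of the list were positive, with a median of 0.17, beside 0.02 for the 9 phosphodiesterase genes. Apart from NR4A2, PER2 and CREM, their 95% intervals all covered 0, with differences from 0.02 (SIK1) to 0.33 (FOS). The list was drawn up with results for NR4A2 and PER2 known, and the difference between the lists was not tested.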

How the data were processed

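Total RNA from 8 samples, 4 per group, was biotin-labelled for Affymetrix whole-transcript arrays, per the labels' protocols. The authors deposited 1 log2 expression value per probe set and array for 23786 probe sets, without detection calls. The submitters' processing notes name Partek; background correction, summarisation, normalization and probe build were not given in the sources used here. Values were taken as log2 from their range, and the number of arrays limits the precision.

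Platform gene symbols were updated by Entrez ID through RefSeq (GRCh38.p14), which matched 22458 of 22458; 1328 unnamed probe sets were left out. limma 3.58.1 in R 4.3.3 fitted 1 coefficient per group to all 8 arrays, with empirical Bayes moderation and Benjamini-Hochberg adjustment over 22458 genes. Exact two-sided permutation used all 70 splits. Steps were tested on simulated data. Of 112 listed genes 106 were measured. Named genes were the 9 members, CRTC1, and per pathway list those at an unadjusted p under 0.05 or, failing that, the smallest p. Members and lists were chosen with earlier results of these data known. Alternatives covered a replicate block, quantile normalization, median centring, a brightness filter, variance trend, array weights, all probe sets and each array left out.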

Additional observations from a re-analysis of the deposited data

Results flagged for a closer look

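In 3 of 38 groups of 4 arrays 1 array lay far from the other 3 by Dixon's test, and chance flags about 1 in 20 groups. PDE4A lay at 4.33 on CTRL n4, against 4.83 to 4.93 on the other CTRL arrays. PER2 lay at 4.48 on CTRL n4, against 4.72 to 4.73. DISC1 lay at 2.37 on CRTC1 n1, against 2.55 to 2.56 on the other CRTC1 arrays.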

How the results depend on the processing

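No phosphodiesterase gene of the 9 passed after adjustment in any of 15 alternatives. Of 130 values of these genes 114 kept their direction, and 16 had the other sign, all in genes with a difference near 0. Outside the fits that leave out an array, PDE4C was -0.012 with quantile normalization and PDE4B -0.015 with array weights. With 1 array left out, PDE3A ran from -0.0081 to 0.11, PDE4A from -0.17 to 0.10, PDE4B from -0.12 to 0.32, PDE4C from -0.094 to 0.097 and PDE7A from -0.0062 to 0.085. The count of the 9 at an unadjusted p under 0.05 was 0 to 1 in those fits (PDE4B without CRTC1 replicate 2), and so was the count without overlap (PDE10A without CTRL replicate 3). Genes past the threshold numbered 2 with a variance trend and robust moderation. Genes at an unadjusted p numbered 829 in the brighter part of the array (mean at or above the median), which tests fewer genes and kept 4 of the 9. With the replicate number as a block, 0 of the 9 passed, and PDE8A and PDE10A kept 0.09 and 0.15 (unadjusted p = 0.268 and 0.115 in limma). Under the block the unadjusted p of CREM was 0.0658 and that of DISC1 0.0542 in limma. The labels do not say what equal numbers share. Deviations of same-numbered arrays correlated at 0.25, 0.04, 0.06 and 0.12 across genes, and 8 of 8 arrays correlated best with their own number, which is a hint from the data, not the design. The dim signal of 5 of the 9 genes limits what the array could show.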
